A study of Aptenodytes patagonicus with 7 samples.

Results

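The metallothioneins MT3 and MT4 were compared between juvenile king penguins that had adapted to the sea and others that had never been immersed, in the pectoralis, the main muscle of the wing stroke. Members were all probe sets whose only gene symbol in the platform annotation was MT3 or MT4. There were 2 of them among the 36897 probe sets of the table, 1 for each gene (2 of 12920 named genes), and neither MT1 nor MT2 was listed. The sea-acclimated group (SA) held 3 juveniles, 2 females and 1 male, already living at sea. The never-immersed group (NI) held 4 juveniles, 3 females and 1 male, still on land, whose entry into the cold sea was near. The birds were wild, a surgical biopsy was taken from each under isoflurane, and each array carried the RNA of 1 bird on probes made for chicken. The labels give no ages, and age and the time spent at sea cannot be told apart from immersion itself. Both genes were among those that the study picked from these same arrays for quantitative PCR, so a difference between the groups on the arrays is not independent of the reason they are known.

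Metallothioneins are very small proteins in which a large share of the residues are cysteines. The sulphur atoms of these cysteines hold zinc and copper ions, and also bind toxic metals such as cadmium. They store and buffer zinc and can react with oxidants. In vertebrates their genes are switched on by the zinc-sensing factor MTF1, and glucocorticoids and oxidative stress also raise their transcripts. In mammals MT3 is best known from brain and MT4 from stratified epithelia, whereas the names used here are those of the chicken annotation.

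The deposited value of each probe set is the log2 intensity of a single chicken probe. The array probes themselves were not used here, but the PCR primers show which parts of the transcripts the study aimed at. The study designed a primer pair on the chicken transcript for each gene, and a further pair on the king penguin sequence of MT3. They are given 5′ to 3′, and capitals mark the longest run shared between a chicken primer and a penguin primer of MT3.
MT4, chicken, listed as 5′: accctcaggactgcacttgt
MT4, chicken, listed as 3′: cggttccttgcagacacag
MT3, chicken, listed as 5′: cTGCACGTGTGGAGACAACT
MT3, chicken, listed as 3′: TGTGCACACTTGGCACATC
MT3, king penguin, listed as 5′: TGTGCACACTTGGCACATCctgc
MT3, king penguin, listed as 3′: TGCACGTGTGGAGACAACTgcaaa
The 2 penguin primers of MT3 each contained a run of 19 bases of a chicken primer, with 4 and 5 bases beyond it. The list gives the ends of the penguin pair in the opposite order to those of the chicken pair. Between the primers of MT3 and those of MT4 the longest common run, on either strand, was 6 bases. The penguin primers were designed on products amplified with the chicken primers, so the sharing of these runs is set by that design and is no measure of how alike the 2 species are.

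Over the whole table, the limma fit called 154 probe sets higher (0.417%) and 240 lower (0.65%) in SA than in NI with the adjusted p below 0.10, which together is 1.07% of those tested. Directions here follow the sample labels. The study's text has these counts the other way round, with more genes up than down after acclimation, whereas the array columns of its primer table give MT3 and MT4 the sign that the labels give. Every SA bird lay above every NI bird in 5.16% of all probe sets. The values are quantile normalized, and the median log2 value of every array lay between 8.58 and 8.59. In a principal component analysis, the first component held 32.6% of the variance and the second 23.0%. SA bird 1 stood apart on the second, at 50.2, whereas the other birds lay between -23.1 and 5.21. The labelled tissue was checked against 17 markers of skeletal muscle fibres, of which 11 were measured and 10 were brighter than 80% of all probe sets. Each bird is a separate animal.

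MT4 rose in SA birds, and by the size of its rise it ranked number 3 of all probe sets. Its probe set, for chicken gene 396212 in the platform annotation, had a log2 intensity of 13.6, 12.2 and 13.2 in SA birds 1, 2 and 3, against 11.3, 11.0, 11.0 and 10.4 in NI birds 1, 2, 3 and 4. No SA bird overlapped an NI bird, with 0.92 log2 units between SA bird 2, the lowest of its group, and NI bird 1, the highest of its own. The mean was 13.0 ± 0.741 (SD, n = 3) in SA and 10.9 ± 0.342 (SD, n = 4) in NI. The log2 difference was 2.07 (standard error 0.32, limma adjusted p = 0.0329), which is 4.21-fold with a 95% confidence interval of 2.57 to 6.89. In the SA birds the signal stood above 97.5% to 99.6% of all probe sets on the same array, and in the NI birds above 87.0% to 93.6%.

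MT3 rose as well. Its probe set, for chicken gene 770592, had a log2 intensity of 10.8, 10.2 and 11.1 in SA birds 1, 2 and 3, against 9.64, 9.36, 8.95 and 8.88 in NI birds 1, 2, 3 and 4. The groups did not overlap, and SA bird 2 was again the lowest SA bird and NI bird 1 the highest NI bird, 0.56 log2 units apart. The mean was 10.7 ± 0.445 (SD, n = 3) in SA and 9.21 ± 0.358 (SD, n = 4) in NI. The log2 difference was 1.49 (standard error 0.24, limma adjusted p = 0.0399), which is 2.81-fold with a 95% confidence interval of 1.93 to 4.09. By the size of the rise MT3 ranked number 15 of all probe sets and number 11 of those that passed the test.

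**Figure D1:**
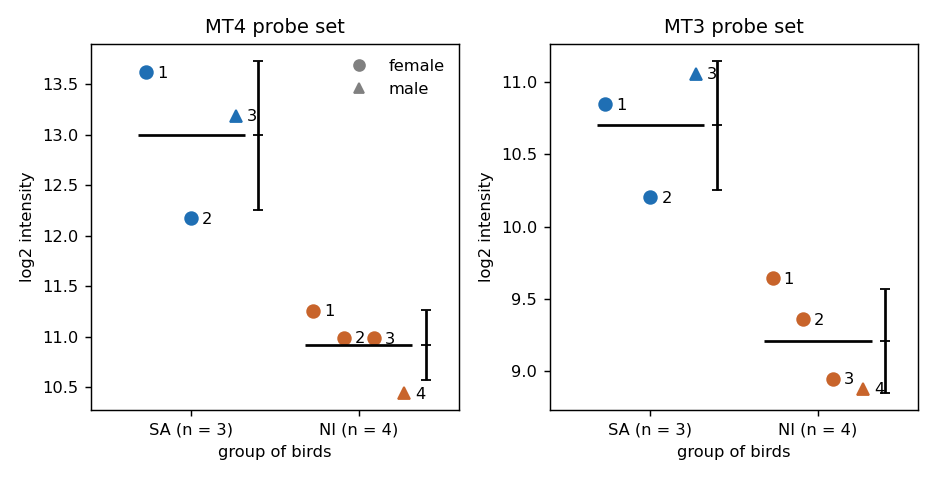
Log2 intensity of the MT4 and MT3 probe sets in each bird, SA on the left and NI on the right of each panel. Numbers name the birds, circles are females and triangles males, horizontal lines are group means and bars show 1 SD. In both panels the lowest SA bird, number 2, lies above the highest NI bird, number 1. The axes of the panels differ and do not start at 0.

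Both members thus passed the test in the same direction. The study had picked both for quantitative PCR from genes that differed on these same arrays. For that reason the 0.417% of all probe sets that passed upwards does not measure how rare this was for MT3 and MT4. Each gave p = 0.0286 in an exact permutation test (two-sided, n = 3 and 4), the lowest p that the 35 possible splits can reach. This adds little to the lack of overlap already given, which 10.3% of all probe sets showed in either direction. The interval and the test describe the spread among 7 birds only, and the methods mention no background subtraction, so that the folds are those of the signal. MT3 and MT4 are paralogs, and how far either chicken probe also binds the penguin transcript of the other was not tested.

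The spread between birds was wide for both genes. The SD of MT4 was above that of 98.5% of all probe sets in SA and 89.3% in NI, and the SD of MT3 above that of 92.3% in SA and 90.6% in NI. The median SD over all probe sets was 0.169 in SA and 0.174 in NI. SA bird 2 was set apart in particular. Relative to the NI mean of the same gene, MT4 was 6.50-fold, 2.39-fold and 4.81-fold in SA birds 1, 2 and 3. MT3 was 3.10-fold, 1.99-fold and 3.60-fold in these birds. The birds stood in nearly the same order in both genes. NI bird 1 was the highest and NI bird 4 the lowest of the NI birds in each, and only SA birds 1 and 3 changed places.

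The rise of MT4 was set against that of MT3 within each bird, each gene being taken relative to its own NI mean. The MT4 deviation exceeded the MT3 deviation by 1.07, 0.26 and 0.42 log2 units in SA birds 1, 2 and 3. In NI birds 1, 2, 3 and 4 the excess was -0.09, -0.08, 0.32 and -0.15, so that SA bird 2 lay within the range of the NI birds. The mean of SA exceeded that of NI by 0.58, with p = 0.0857 in an exact two-sided permutation test (n = 3 and 4), which is above 0.05. This does not show that the 2 rises are equal. The 2 probes also differed in brightness. In the NI birds MT3 stood 0.30 to 1.06 log2 units above the array median, and MT4 1.86 to 2.67. Whether both probes report a fold on the same scale was not tested.

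Both calls depended on which birds were included. MT4 kept a log2 difference of 1.76 to 2.48 when each bird was left out in turn, and MT3 one of 1.31 to 1.74. Without NI bird 2 the adjusted p from limma was 0.113 for MT4 and 0.114 for MT3, and without SA bird 3 it was 0.125 and 0.139. In the other 5 fits both passed, with an adjusted p of 0.0643 for MT4 and 0.0943 for MT3 when SA bird 1, the bird apart on the second component, was omitted. The fits that lost both calls also made fewer calls in general, as 0.257% of all probe sets passed without NI bird 2 and 0.377% without SA bird 3. The log2 differences themselves were close to those of all birds in these fits, at 2.10 and 1.98 for MT4 and 1.54 and 1.31 for MT3.

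The sexes were unequally filled, with 1 male in each group. Among females the log2 difference was 1.82 for MT4 and 1.20 for MT3, and between the SA male and the NI male it was 2.74 and 2.17. The test of the difference between the sexes in limma gave an unadjusted p of 0.221 for MT4 and 0.083 for MT3, with an adjusted p of 1.00 for both. With 1 male in each group, that test rested on the spread between females and holds no measure of the spread between males. The SA male was the highest SA bird for MT3 but not for MT4, and the NI male was the lowest bird for both genes. With the 5 females alone neither gene passed (limma adjusted p = 0.218 and 0.235), in a fit where 0.179% of all probe sets did.

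**Figure D2:**
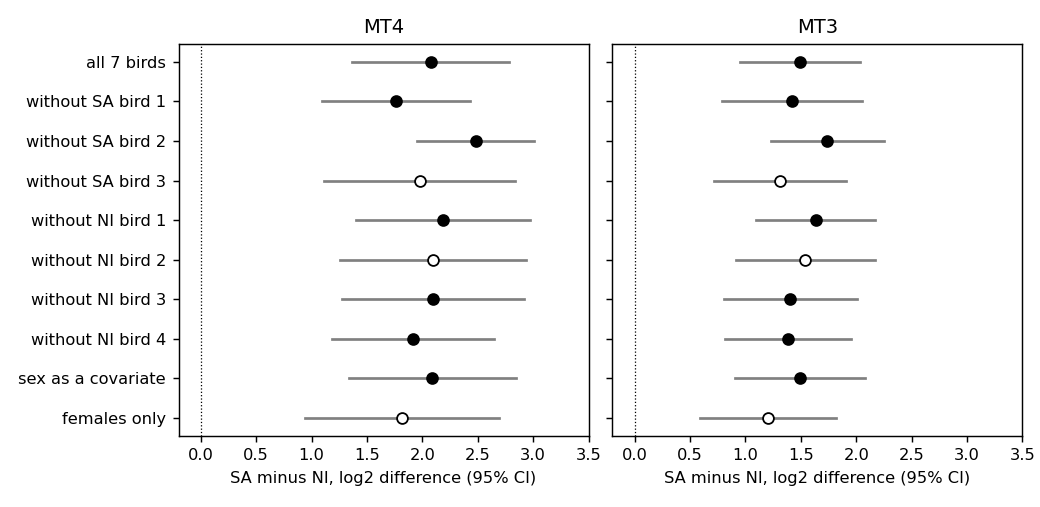
SA minus NI log2 difference of MT4 and MT3 with its 95% confidence interval from limma, with all 7 birds, with each bird left out, with sex as a covariate and in females only. Filled points passed an adjusted p under 0.10 and open points did not. Every interval lies above 0, with MT4 between 1.76 and 2.48 and MT3 between 1.31 and 1.74 as single birds are left out.

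The genes that set the supply of metal to metallothioneins were then described, each by its brightest probe set. Over all 12920 genes so represented, 1.55% passed the test, 0.58% upwards and 0.967% downwards, and the median log2 difference was 0.0028. Of 18 measured zinc transporters, 1 was lower and none was higher, with a median log2 difference of -0.013. The lower one was SLC39A5, a plasma membrane importer of zinc. It had a log2 intensity of 9.34, 8.92 and 10.1 in SA birds 1, 2 and 3, against 11.2, 11.6, 10.7 and 10.5 in NI birds 1, 2, 3 and 4. The groups did not overlap, and the log2 difference was -1.52 (standard error 0.33, limma adjusted p = 0.0994). This call was close to the threshold and passed only without NI bird 4 (limma adjusted p = 0.0958) or SA bird 3 (0.0902) among the 7 fits that left out 1 bird, with an adjusted p of 0.119 to 0.259 in the others. A second probe set of SLC39A5 lay at 0.01 (limma adjusted p = 0.985). The 22 other probe sets of the zinc transporters ran between -0.33 and 0.70. None of these passed, with 2 at an unadjusted p under 0.05. The highest was a dim probe set of SLC30A6 (limma unadjusted p = 0.0018, adjusted p = 0.123), a gene whose brightest probe set lay at -0.02.

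SLC30A1, the exporter that removes zinc from the cytosol and is itself a target of MTF1, was slightly brighter in each SA bird. Its log2 intensity was 10.6, 10.7 and 11.0 in SA birds 1, 2 and 3, against 10.3, 10.5, 10.5 and 10.3 in NI birds 1, 2, 3 and 4. The groups did not overlap, yet the log2 difference of 0.34 did not pass (limma adjusted p = 0.450), and a second probe set lay at 0.05. SLC39A13 and SLC39A3, both zinc importers, lay at -0.41 and -0.38 and did not pass. Their second, dimmer probe sets lay at 0.13 and 0.004.

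None of 12 measured genes of copper handling passed in limma, where 1.55% of all genes did. So few genes would seldom hold a call at that share. The log2 differences of their brightest probe sets ran between -0.27 and 0.11, with 1 of them at an unadjusted p under 0.05. Their 21 other probe sets ran between -0.54 and 0.48, and none of these passed, with 2 at an unadjusted p under 0.05. That one was SLC31A2, a copper transporter of endosomal membranes, at -0.27 (limma adjusted p = 0.420). The copper importer SLC31A1 lay at 0.04 in the brightest of its 6 probe sets, while the others ran between -0.54 and 0.48, the last with an unadjusted p of 0.0103 (limma adjusted p = 0.252). The copper chaperones ATOX1 and COX17 lay at -0.09 and -0.03. STEAP3 and STEAP4, which reduce iron and copper, lay at -0.16 and -0.18.

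None of 11 measured regulators of metallothionein genes passed in limma, where 1.55% of all genes did, a share at which so few would seldom hold a call. None had an unadjusted p under 0.05 in its brightest probe set, a level that 12.4% of all genes reached. MTF1 had a log2 intensity of 10.2, 9.26 and 9.65 in SA birds 1, 2 and 3, against 10.1, 9.91, 9.38 and 9.93 in NI birds 1, 2, 3 and 4. SA bird 2 was the lowest of all 7 birds and SA bird 1 the highest, so the groups overlapped in full. The log2 difference was -0.11 (limma adjusted p = 0.931), and -0.26 for the second MTF1 probe set (limma adjusted p = 0.790). The glucocorticoid receptor NR3C1 lay at -0.23, -0.22 and -0.12 in its 3 probe sets, all of them dimmer than most of the table and none of which passed. USF1, SP1 and MAFK, 3 further transcription factors, lay at 0.26, 0.21 and 0.26 without passing. A second, dimmer probe set of USF1 went the other way, at -0.43 (unadjusted p = 0.0257, limma adjusted p = 0.368).

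None of 14 measured genes that respond to glucocorticoids in other vertebrates passed, where 1.55% of all genes did. Of the 14, 4 had an unadjusted p under 0.05, a level that 12.4% of all genes reached. These 4 did not share a direction. SESN1, a stress-induced inhibitor of growth signalling, lay at 0.77 (limma adjusted p = 0.164), and GLUL, glutamine synthetase, at 0.53 (limma adjusted p = 0.382). The kinase SGK1 lay at -0.92, and at -1.15 without NI bird 4, where it passed (limma adjusted p = 0.0759). The transcription factor KLF9 lay at -0.74. Second probe sets lay at 0.82 for SESN1, 0.07 for GLUL and -0.68 for SGK1, and none passed. FKBP5, a co-chaperone of the receptor that is widely used as a readout of glucocorticoids, lay at 0.11.

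Of 29 measured genes of thiol and oxidant defence, 1 was higher and none was lower. This was GPX4, the peroxidase that reduces oxidized membrane lipids, with a log2 difference of 0.95 (limma adjusted p = 0.0826). Its log2 intensity was 10.5, 10.4 and 10.4 in SA birds 1, 2 and 3, against 9.04, 9.70, 9.37 and 9.90 in NI birds 1, 2, 3 and 4, without overlap. Among the 7 fits that left out 1 bird it passed only without NI bird 4 (limma adjusted p = 0.0673), with an adjusted p of 0.128 to 0.218 in the others. GPX4 stood at nearly the same level in all SA birds, with SA bird 2 the lowest (10.38, against 10.44 in SA bird 3). Among the SA birds this one also had the least MT3 and MT4. The NI birds ran the other way. NI bird 1 had the lowest GPX4 and NI bird 4 the highest, the reverse of their places in MT3 and MT4.

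HMOX1, the heme oxygenase that metals and oxidants induce as they do metallothioneins, had the largest difference of this list without passing. Its log2 intensity was 9.40, 9.92 and 11.5 in SA birds 1, 2 and 3, against 7.87, 8.65, 9.88 and 9.06 in NI birds 1, 2, 3 and 4. SA bird 3 was far above the rest, and NI bird 3 exceeded SA bird 1. The log2 difference was 1.41 (standard error 0.54, limma adjusted p = 0.376). SOD1, the cytosolic superoxide dismutase that carries copper and zinc, lay at 0.42, MGST3 at 0.61 and PRDX3, a mitochondrial peroxiredoxin, at 0.42, none of which passed. Second, dimmer probe sets lay at -0.12 for SOD1 and -0.02 for PRDX3. The 20 other probe sets of this list ran between -0.44 and 0.22, and none passed.

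Over these 5 lists together, 2 of 84 genes passed (2.38%, against 1.55% of all genes). In 7 of the 84 the groups did not overlap (8.33%, against 10.3% of all probe sets). None of the 84 had a larger rise than MT3. By its rise MT3 ranked number 15 of all probe sets, so a list of this size would seldom hold a larger one. MT3 had also been picked from these same arrays, so this is a description and no contrast with the lists.

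**Figure D3:**
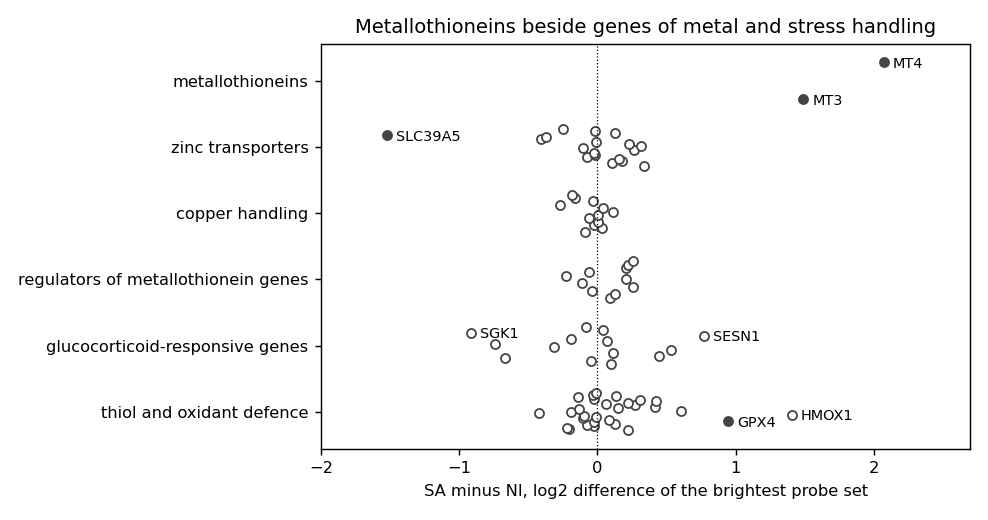
SA minus NI log2 difference of MT4 and MT3 and of each measured gene in 5 lists, each gene by its brightest probe set. Filled points passed an adjusted p under 0.10 in limma and open points did not. MT4 at 2.07 and MT3 at 1.49 lie to the right of every other gene shown, and HMOX1 at 1.41 is next. MT4 and MT3 had been picked by the study from these same arrays, so their place is a description.

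The summed signal of the markers of 3 cell types did not overlap between the groups. Of all single probe sets, 10.3% did not overlap in either direction. In a whole biopsy, fewer cells of a type and less RNA per cell cannot be told apart. The summed signal of 16 fibroblast markers had a log2 value of 14.32 to 14.85 in SA and 15.04 to 15.57 in NI. Of the 16, 4 passed as lower, where 0.967% of all genes did. Only 1 of the 16 lay above 0, and their median log2 difference was -0.68. In limma 8 had an unadjusted p under 0.05, a level that 12.4% of all genes reached. For the 11 measured markers of muscle fibres the sum was 17.63 to 17.68 in SA and 17.74 to 17.81 in NI. These sums did not overlap either, and the fast troponin TNNC2 was lower. Without TNNC2 the muscle sum was 17.5703 to 17.6296 in SA and 17.6331 to 17.7197 in NI, so that the groups barely stood apart. ACTA1, a part of this sum, lay at 15.27, the highest value of the table, in every bird and cannot show a change. The summed signal of 11 adipocyte markers was 13.80 to 13.99 in SA and 13.41 to 13.75 in NI without overlap. RBP7, the brightest of them, was higher, at 1.13 (limma adjusted p = 0.0714) in the brighter of its 2 probe sets. The dimmer one is not described here. The adipocyte sum rested on RBP7, as the other 10 markers summed to 12.90 to 13.18 in SA and 13.04 to 13.27 in NI, which overlap. Of these 10, 5 lay below 0, ADIPOQ at -0.30, CD36 at -0.34, PLIN2 at -0.30, LPL at -0.26 and PLIN1 at -0.12. The others lay above 0, FABP4 at 0.28, CEBPA at 0.12, PPARG at 0.07, DGAT2 at 0.03 and CIDEC at 0.02. FABP4 had the smallest p of the 10 (limma unadjusted p = 0.0265, adjusted p = 0.372), and its groups did not overlap. The median log2 difference of the whole list was 0.024. The part of these shifts in the rise of MT3 and MT4 was not tested.

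The summed signal of epithelial and of nerve markers overlapped between the groups. For 11 keratinocyte markers it was 13.48 to 13.74 in SA and 13.57 to 13.62 in NI, and none passed. For 8 nerve and Schwann markers it was 12.80 to 12.89 in SA and 12.88 to 13.01 in NI. MBP, a myelin protein, was lower, at -1.24 (limma adjusted p = 0.0377). The endothelial, leukocyte, erythroid and smooth muscle sums overlapped as well. Of these lists only TFRC, an erythroid marker, passed, as lower, at -1.64 (limma adjusted p = 0.0733). MBP and TFRC have 2 probe sets each, and the dimmer one is not described here.

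In the king penguin annotation (assembly bAptPat1.pri.cur) no entry carries a symbol from MT1 to MT4. Where MT3 and MT4 lie in the penguin is therefore not known here, and the interval was taken over from human. In human the metallothionein genes lie between BBS2 and NUP93. In the penguin, BBS2 (chr11:21521610-21541529) and NUP93 (chr11:21563617-21648462) are neighbours too, with 2 entries between them that carry no gene name, 1 of them protein coding (chr11:21550298-21551733). The 5 named genes on either side of this interval were described, of which 8 of 10 had a probe set.

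None of their 18 probe sets passed in limma, where 1.07% of all probe sets did. So few probe sets would seldom hold a call at that share. Of the 18 differences, 8 were above 0. The largest was that of SLC12A3, a sodium chloride cotransporter of kidney, at 0.39 in 1 of its 3 probe sets (limma adjusted p = 0.817), with 0.10 and 0.22 in the others. BBS2, a protein of the primary cilium, lay at -0.20 and -0.26 in its 2 probe sets. The nuclear pore protein NUP93 lay at 0.14, -0.10, -0.36 and -0.27 in its 4, of which the third had an unadjusted p of 0.023. OGFOD1 lay at -0.08, GNAO1 between -0.08 and 0.04, TMEM170A at 0.30 and 0.22, CFDP1 at 0.03 and -0.04, and BCAR1 at -0.06.

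Profiles over the 7 birds were compared by the root mean square difference in log2 after each probe set was centred on its own mean, over 26107 other probe sets with 1 gene symbol. A flat profile would be 1.12 away from MT4 and 0.81 away from MT3. The nearest to MT4 were SLAMF1, a receptor of lymphocytes (0.21), KIF3B, a kinesin motor subunit (0.25), R3HDM4 (0.35), MT3 itself (0.39) and UQCC3, an assembly factor of respiratory complex III (0.47). The nearest to MT3 were FAM13B (0.23), R3HDM4 (0.27), UQCC3 (0.27), SLAMF1 (0.28) and PIK3IP1, an inhibitor of PI3 kinase (0.31), while MT4 was number 17.

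These 6 genes besides MT3 and MT4 were picked for being alike, so that their rises are a description. Their probe sets lay between 1.14 (FAM13B) and 1.92 (KIF3B). Apart from PIK3IP1, whose lowest SA bird was number 1, SA bird 2 was the lowest of the SA birds in each of them, as in MT3 and MT4. SLAMF1 had a log2 intensity of 10.03, 8.82 and 9.73 in SA birds 1, 2 and 3, against 7.94, 7.99, 7.95 and 7.34 in NI birds 1, 2, 3 and 4.

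For 4 of these 6 genes, further probe sets of the same gene could be set beside the one that was near. SLAMF1, KIF3B, R3HDM4 and UQCC3 had 6 other probe sets between them. Their log2 differences were -0.08 for SLAMF1, 0.04 and 0.21 for KIF3B, 0.04 and -0.12 for R3HDM4 and 0.10 for UQCC3. Those at -0.08 for SLAMF1 and at 0.04 for R3HDM4 were brighter than the near probe set of the gene, and the others were dimmer. None of the 6 passed. MT3 and MT4 had 1 probe set each, and therefore no second probe set against which to read their rise.

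**Figure D4:**
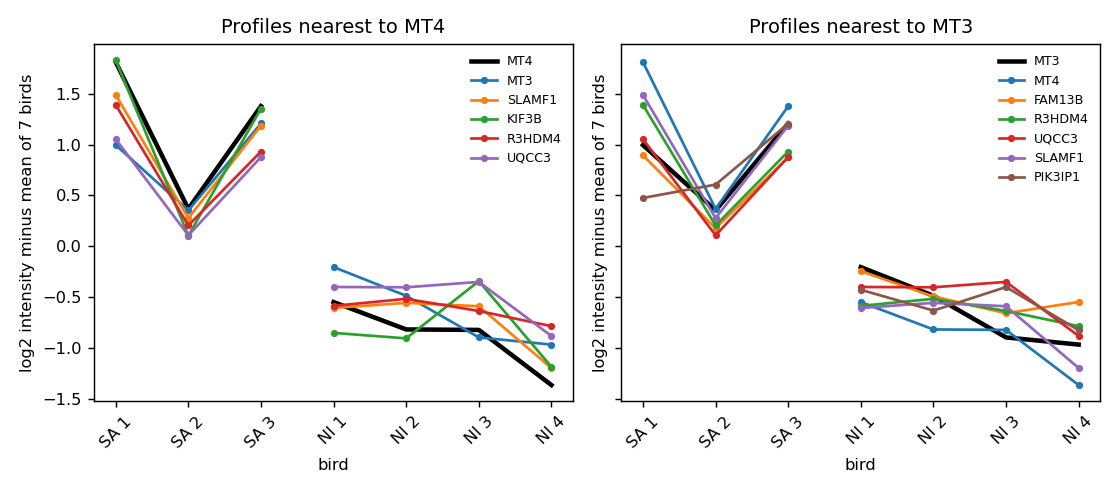
Log2 intensity minus the mean of the 7 birds for MT4 and its 5 nearest probe sets (left) and for MT3 and its 5 nearest with MT4 added (right). Lines join the values of 1 probe set within SA and within NI, and the order of birds within a group has no meaning. SA bird 2 is the lowest SA bird in all of them except PIK3IP1.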

How the data were processed

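The authors deposited 1 table of log2 intensities of 36897 probe sets in 7 birds, measured on Affymetrix chicken arrays. For these log2 values the authors used perfect-match probes that exceeded background somewhere, let 1 probe, the one with the top rank sum, stand for its probe set, and applied quantile normalization. Limma is named in the submitters' processing notes, with no version.

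The SA minus NI difference of every probe set was fitted with limma 3.58.1 in R 4.3.3 (lmFit and eBayes, defaults, with 5 residual and 4.34 prior degrees of freedom). The Benjamini-Hochberg adjustment ran over all 36897 and the threshold was 0.10, after the paper's methods. No probe set was filtered out. Of the probe sets, 26108 carried 1 gene symbol, 171 several and 10618 none. Single values were tested by exact permutation over the 35 splits of the birds. The fit was tested on simulated data with 200 changed probe sets in each of 10 runs over 36897 probe sets. It recovered 92.2% of shifts by 1 log2 unit and 99.6% of shifts by 2. The simulated noise was normal and independent, with the moderated SD of each probe set, equal in both groups. These shares do not carry over to genes of wider spread, as HMOX1 at 1.41 did not pass in the real data.

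The members and gene lists were chosen with earlier results of these data known. Named were MT3 and MT4, the 5 probe sets nearest to each in profile, and the list members of smallest p (up to 4 each). MTF1, NR3C1 and SLC30A1 were named too, and the 5 genes on each side of the interval between BBS2 and NUP93. FKBP5, DUSP1, HMOX1, SLC31A1, COX17, SLC30A6, ACTA1 and the adipocyte markers other than RBP7 were named besides, after the values were seen. The sums without RBP7 or TNNC2 were computed after that as well. The interval between BBS2 and NUP93 was chosen after seeing that the annotation names no metallothionein. The alternatives were other normalizations, filters on dim probe sets, other priors, weights per array, a term for sex or for replicate number, females only, a threshold of 0.05 and each bird left out. The number of arrays limits the precision. The study's PCR values were not used here.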

Additional observations from a re-analysis of the deposited data

Results flagged for a closer look

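In 6 of 47 named probe sets, 1 of the 4 NI birds lay farther from the others than Dixon's 95% criterion allows, which chance gives in about 1 of 20 groups. MT3 and MT4 were not among them. SP1 had a log2 intensity of 10.7 in NI bird 2, against 11.1 in each of the other NI birds. NUP93 was at 7.07 in NI bird 2 in 1 probe set, against 7.35 to 7.38, and at 8.80 in NI bird 3 in another, against 9.13 to 9.16. TMEM170A was at 8.27 in NI bird 3, against 8.71 to 8.80. SLAMF1 and UQCC3 were lowest in NI bird 4, at 7.34 against 7.94 to 7.99 and at 9.38 against 9.86 to 9.91. MT3 and MT4 were lowest in this male as well. SLAMF1 and UQCC3 had been picked for being close to MT3 and MT4 in profile, so that this likeness is a description.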

How the results depend on the processing

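Of 19 alternatives each, MT4 and MT3 kept their direction in all and their call in 16. The exceptions were females only and the fits without NI bird 2 or SA bird 3. Several alternatives were weak challenges. The other priors, the dim filters and the threshold of 0.05 cannot alter the log2 difference. Median centring and repeated quantile normalization hardly change values that are already quantile normalized. The replicate block gave the same difference as leaving out NI bird 4. With single birds left out, MT4 lay between 1.76 and 2.48 and MT3 between 1.31 and 1.74. In females only, the log2 difference of 1.82 for MT4 and 1.20 for MT3 did not pass. The excess of the MT4 over the MT3 change lay between 0.34 and 0.74 with single birds left out. The exact test could not reach 0.05 there or in females only, where its smallest possible p was 0.0667 to 0.1.

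SLC39A5, the 1 zinc transporter called, was lost with cyclic loess, without the dimmest 25% of probe sets, with sex as a covariate, at a threshold of 0.05 and with the mean of all probe sets of a gene (0 called in each), and 0 to 1 were called with single birds left out. Its adjusted p was also above 0.10 with array weights (0.129), robust eBayes (0.120), an intensity trend (0.102) and a stricter filter on dim probe sets (0.102). SLC39A5 passed in females only, at -2.04 (limma adjusted p = 0.0725), and with the replicate block, at -1.70 (0.0649). It also passed with median centring and repeated quantile normalization. GPX4, the 1 gene of thiol and oxidant defence called, was lost with sex as a covariate, at a threshold of 0.05 (0 called), and in females only (limma adjusted p = 0.195), and 0 to 1 were called with single birds left out. Of the glucocorticoid-responsive genes, 0 to 1 were called with single birds left out. Copper handling and the regulators stayed at 0 called in all 13 alternatives. With 12 and 11 genes, and 1.55% of all genes called with all 7 birds, such lists would seldom hold a call, so this says little. Over all probe sets, 394 calls became 766 with array weights, 66 in females only, 175 at a threshold of 0.05 and 95 to 487 with single birds left out.

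Birds of the 2 groups share replicate numbers but are different animals. Their deviations from the group means correlated at 0.29, -0.03 and 0.17 for numbers 1, 2 and 3. SA birds 1 and 3 correlated best with the NI bird of their own number. Whether a shared number stands for shared handling was not tested. SA bird 2 correlated best with NI bird 3 (0.31). With the replicate number as a block, MT4 lay at 1.92 (limma adjusted p = 0.0133) and MT3 at 1.38 (0.0374), 624 probe sets were called, and the excess of MT4 over MT3 was 0.53 (exact p = 0.25, the smallest that 3 pairs allow). In this block fit SLC39A5, 2 glucocorticoid-responsive genes (SGK1 and DUSP1) and 2 of thiol and oxidant defence (GPX4 and HMOX1) passed. The methods mention no background subtraction, and how far dim probe sets hold true signal is unknown here.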
